A study of Mus musculus with 24 samples.

Results

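Normal colon mucosa was compared between 2 mouse models of colon cancer, AOM-DSS and APC, for its mature microRNAs (miRNAs). Libraries were chosen by the words of the raw count columns, with 7 named normal AOM-DSS and 6 named normal APC, which together are 13 of the 24 libraries of the study, and every mouse miRNA probe was kept (566). The other 11 libraries are 6 AOM-DSS and 5 APC tumours. They entered the filter, the scaling and the estimate of spread behind the tests of normal mucosa. They were themselves compared between cartridges and, at the end, between models. In the APC group, which the design text names APC;CpC, a Cre recombinase under the CDX2 promoter targets the tumour suppressor gene Apc in epithelium of the lower gut, so that tumours start from a genetic lesion. How much Apc the normal mucosa of this group kept was not measured here. In the AOM-DSS group, the carcinogen azoxymethane is combined with dextran sulphate sodium, which injures the epithelium and causes colitis. The labels give neither strain, age, sex, dose nor time for either group, and mucosa of untreated wild-type mice is not analysed here, so a difference has no healthy reference and no side of it is a baseline. The labels do not say whether libraries came from separate animals. The p-values therefore rest on the spread between libraries within groups, tumours included for edgeR, and not on a known number of animals. All APC libraries ran on cartridge 1 and all AOM-DSS normal libraries on cartridge 2, and model and cartridge cannot be told apart in any result here.

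miRNAs are short RNAs cut from hairpin precursors that guide Argonaute proteins to target transcripts, mostly through the seed, the bases 2 to 8 from the 5′ end. Several mark a cell lineage in the gut: miR-194, miR-192 and miR-375 belong to intestinal epithelium, the miR-200 family keeps epithelial cells from losing their junctions by repressing Zeb1 and Zeb2, miR-126 comes from endothelium, miR-143 and miR-145 from smooth muscle and stroma, and miR-223, miR-155, miR-142 and miR-150 from leukocytes. In whole mucosa, fewer cells of a type and less of a miRNA per cell cannot be told apart. Mature sequences of the miRNAs the results turn on follow from RefSeq (assembly GRCm38.p6), with the seed in capitals. The miR-200 family comes first, because its members split by seed: miR-141 (chr6:124717917-124717938, minus strand) and miR-200a (chr4:156054911-156054932, minus strand) share one seed, and miR-200b (chr4:156055685-156055706, minus strand), miR-200c (chr6:124718324-124718346, minus strand) and miR-429 (chr4:156053916-156053937, minus strand) share another.
miR-141: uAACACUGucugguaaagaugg
miR-200a: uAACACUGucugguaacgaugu
miR-200b: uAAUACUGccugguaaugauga
miR-200c: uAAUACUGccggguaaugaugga
miR-429: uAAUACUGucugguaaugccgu
The miRNAs that were higher in AOM-DSS mucosa and are held by the sequence table are shown next. miR-1224 (chr16:20604452-20604472, plus strand) lies within Vwa5b2, miR-762 (chr7:127708534-127708555, plus strand) within the span of Bcl7c, miR-125a-3p (chr17:17830855-17830876, plus strand) within that of Spaca6 and miR-126-3p (chr2:26591402-26591423, plus strand) within Egfl7, and miR-376b (chr12:109723508-109723528, plus strand) and miR-434-3p (chr12:109594565-109594586, plus strand, within Rtl1) lie in the Dlk1-Dio3 imprinted cluster.
miR-1224: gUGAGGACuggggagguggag
miR-762: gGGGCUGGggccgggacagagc
miR-125a-3p: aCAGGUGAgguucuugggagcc
miR-126-3p: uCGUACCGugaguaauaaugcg
miR-376b: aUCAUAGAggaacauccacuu
miR-434-3p: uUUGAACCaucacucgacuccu
Of those lower in AOM-DSS mucosa outside the miR-200 family, miR-30e (chr4:120772660-120772681, minus strand) lies within Nfyc and miR-93 (chr5:138165574-138165596, minus strand) within Mcm7.
miR-30e: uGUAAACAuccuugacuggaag
miR-93: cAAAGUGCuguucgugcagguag
The share of G and C ran from 38.1% (miR-376b) to 81.8% (miR-762) in the 6 higher miRNAs of the table and from 36.4% (miR-200b) to 56.5% (miR-503) in the 7 lower ones, and its part in the differences was not tested.

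NanoString nCounter counts single target molecules with bar-coded probes and no amplification. Total mouse miRNA counts were 208744 to 297309 in the APC libraries and 258878 to 329346 in 6 of the AOM-DSS libraries, whereas AOM-DSS normal 7 held 47235. Across the 199 miRNAs above background, its log2 levels had a median correlation of r = 0.962 with the other libraries of its group (a description over miRNAs), the lowest of the 13. Levels are given as CPM, each count divided by the library's TMM-scaled mouse miRNA total and set to a common total. A miRNA was called above background in a library where its count exceeded the mean plus 2 SD of the 33 probes for viral miRNAs. The labelled tissue was checked: the epithelial miR-192, miR-194 and miR-375 were above background in all 13 libraries, with miR-194 at 21474 to 31522 CPM in APC and 15780.2 to 26553 CPM in AOM-DSS mucosa. miR-145 and miR-143 of smooth muscle were also high in every library, with 106285 to 218335 and 88349 to 115798 CPM of miR-145 in the 2 groups, so these libraries hold RNA of tissue beyond the epithelium.

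AOM-DSS mucosa differed from APC mucosa in a small set of miRNAs, led by a higher miR-1224, miR-2132, miR-762 and miR-125a-3p and a lower miR-2134, miR-141 and miR-200a. Among these, miR-2132 and miR-2134 are probes for sequences since assigned to transfer or ribosomal RNA, and are counted here by their names. Of 563 miRNAs tested with edgeR's quasi-likelihood test, 19 passed an adjusted p of 0.05 (3.37%), 9 of them higher in AOM-DSS mucosa (1.6%) and 10 lower (1.78%), and 89 had an unadjusted p under 0.05. Among the 199 miRNAs above background in most libraries of a group, 17 passed (8.54%). Fitted differences of more than 2-fold were called for 4 miRNAs, miR-1224, miR-2132, miR-2134 and, with an APC level near background, miR-762. For 9 of the 19 the groups did not overlap in CPM, among 12 such miRNAs in all (2.13% of those tested). The median difference of all 563 was -0.0003 on the log2 scale, with 280 above 0 and 283 below. The calls of miR-1224, miR-2132 and miR-2134 held under all 26 alternatives, and those of miR-141, miR-200a, miR-762 and miR-125a-3p under 25, all but scaling to the mRNA probes (adjusted p = 0.175 to 0.178).

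**Figure D1:**
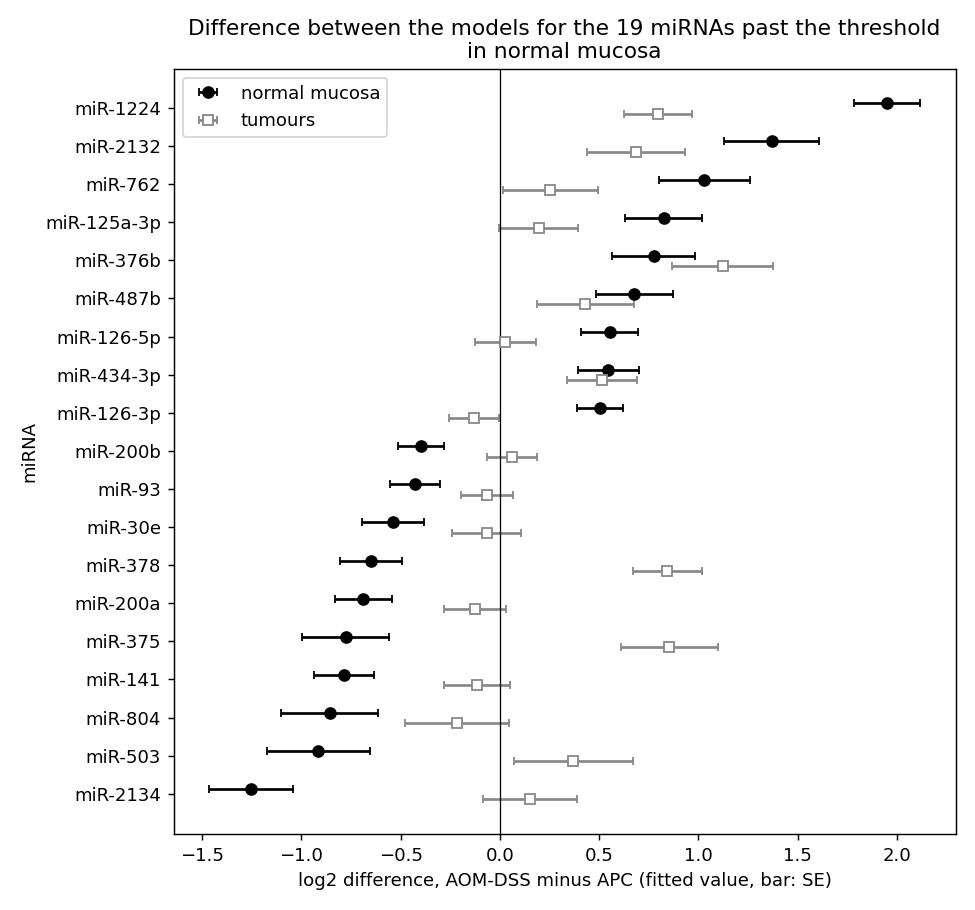
Log2 difference between the models, AOM-DSS minus APC, for the 19 miRNAs past the threshold, in normal mucosa (filled circles, 7 against 6 libraries) and in tumours (open squares, 6 against 5 libraries), with bars of 1 SE. miR-1224 lies farthest right in normal mucosa at 1.95 and miR-2134 farthest left at -1.25, and miR-378 and miR-375 lie on opposite sides of 0 in the 2 tissues.

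Another scaling of the counts changed how many miRNAs were higher and how many lower. Scaled to the 100 highest miRNAs, 38 were higher and 4 lower (90.5% higher, against 47.4% with TMM), and the median of all miRNAs moved to 0.25. Scaled to the mRNA probes 3 were higher and 1 lower (75%), of which 3 were among the 19. The authors' scaled values, tested with limma after log2(value + 1), gave 15 higher and 3 lower (83.3%) with a median of 0.12, a setting that changes the test as well as the scaling. The only comparison between cartridges within 1 group came from the AOM-DSS tumours, 4 on cartridge 3 and 2 on cartridge 2, in which edgeR called 0 of 566 miRNAs (0%). An unadjusted p under 0.05, which chance gives for about 5% of tests, was held by 33 of the 566. Of the 19, miR-1224 and miR-503 were among these 33, with differences (cartridge 3 minus 2) of 0.58 ± 0.24 and -0.84 ± 0.40 (edgeR adjusted p = 0.692 and 0.728). Cartridge 1 has no such comparison.

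miR-1224 had the largest difference between the models. It is a mirtron, a hairpin freed from an intron by splicing rather than by Drosha. In APC mucosa miR-1224 measured 405 to 739 CPM (median 541), and in AOM-DSS mucosa 1794 to 2332 CPM (median 2160.3). Every AOM-DSS library stood above every APC library, and the lowest of them was well above the highest APC library. The means were 551 ± 112 CPM in APC mucosa (SD, n = 6) and 2122 ± 200.1 CPM in AOM-DSS mucosa (n = 7), a fitted 3.87-fold (1.95 ± 0.16 on the log2 scale, SE, adjusted p = 1.18e-11). Leaving out single libraries gave 1.87 to 2.05.

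**Figure D2:**
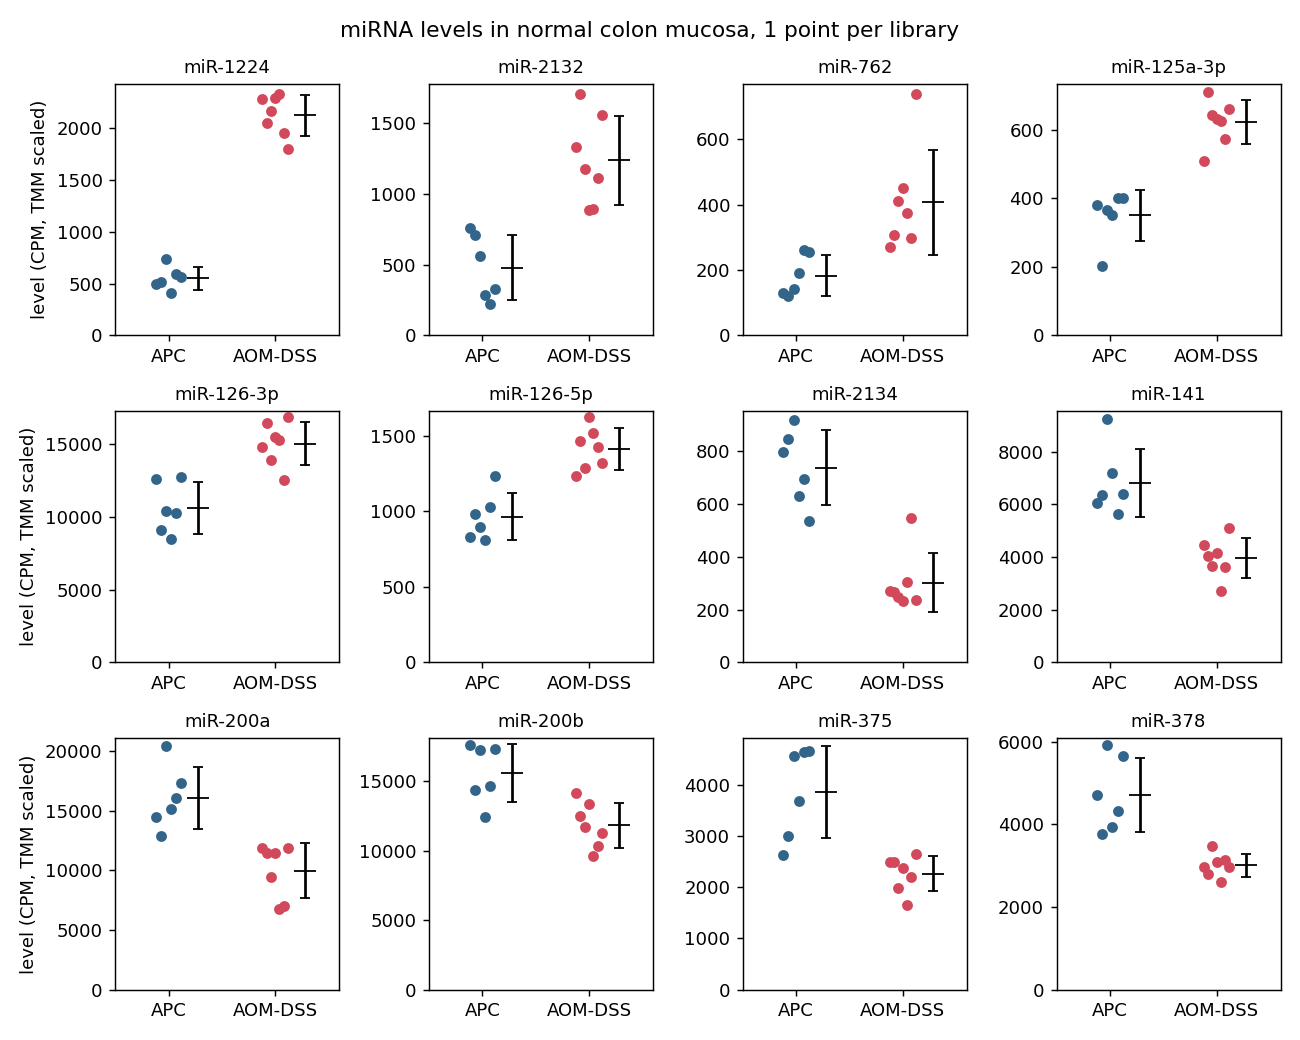
Levels of 12 of the miRNAs past the threshold in each normal mucosa library (points, CPM after TMM scaling, linear axes from 0), with the mean and SD of each group beside them (6 APC, 7 AOM-DSS libraries). miR-1224 separates the groups by a wide gap, and AOM-DSS libraries lie below APC libraries for miR-141, miR-200a and miR-378 without overlap.

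The miR-200 family, made from 2 clusters, was lower in AOM-DSS mucosa in 3 of its 5 members and did not pass in 2. In APC mucosa miR-141 measured 5623 to 9222 CPM (median 6379.8), and in AOM-DSS mucosa 2694 to 5119 CPM (median 4037). For miR-200a the APC libraries measured 12845 to 20405 CPM (median 15595), and in AOM-DSS mucosa 6748 to 11901 CPM (median 11423). In both, each AOM-DSS library lay below each APC library. miR-141 fell by 0.79 ± 0.15 on the log2 scale (adjusted p = 0.00104, 1.72-fold) and miR-200a by 0.69 ± 0.14 (adjusted p = 0.00258, 1.61-fold). miR-200b, whose groups overlapped, measured in APC mucosa 12400.3 to 17585 CPM (median 15955), and in AOM-DSS mucosa 9602 to 14123 CPM (median 11729.5). It fell by 0.40 ± 0.12 (adjusted p = 0.0485). This call ended without any of 11 of the 13 libraries, all except APC normal 4 and AOM-DSS normal 1 (adjusted p = 0.0574 to 0.196), with log2 values of -0.46 to -0.32 throughout. It passed in 5 of 26 alternatives in all, and was lost under each other scaling, among them DESeq2 size factors (-0.41, adjusted p = 0.0899) and the 100 highest miRNAs (-0.15, adjusted p = 0.450), and with no filter, limma-voom, only the normal groups or the replicate block (adjusted p = 0.0509 to 0.110). miR-200c and miR-429 measured -0.24 ± 0.12 (adjusted p = 0.328) and -0.13 ± 0.12 (adjusted p = 0.649). The last of these turned to 0.017 without APC normal 1, and miR-200c and miR-429 turned to 0.0087 and 0.12 when scaled to the 100 highest miRNAs. The list median was -0.40, against -0.0003 over all miRNAs, and -0.15 when scaled to the 100 highest.

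Members with the seed AACACUG, miR-141 and miR-200a, thus had the larger differences in both clusters, while their neighbours with the seed AAUACUG lay nearer to 0. miR-141 lies 408 bases from miR-200c, and miR-200a lies 785 and 991 bases from miR-200b and miR-429. Ratios within a library do not depend on its scaling, and 6 were computed between neighbours, chosen after the values had been seen. Adjusting over the 6 does not cover that choice, so their p-values are no separate evidence. miR-141 over miR-200c was 0.728 to 1.23 (median 0.914) in APC mucosa and 0.48 to 0.907 (median 0.635) in AOM-DSS mucosa (exact two-sided permutation test over 1716 arrangements, p = 0.00524, 0.0105 adjusted over the 6 ratios). The ratio of miR-200a to miR-429 was 0.518 to 1.1 (median 0.816) in APC mucosa and 0.443 to 0.68 (median 0.53) in AOM-DSS mucosa (exact permutation p = 0.00932, 0.014 adjusted over the 6 ratios). Ratios of miR-200b to miR-429, which share the seed, were 0.628 to 0.931 (median 0.768) in APC mucosa and 0.579 to 0.666 (median 0.644) in AOM-DSS mucosa (exact permutation p = 0.00466, 0.0105 adjusted over the 6 ratios). Groups overlapped in each of these 3 ratios.

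**Figure D3:**
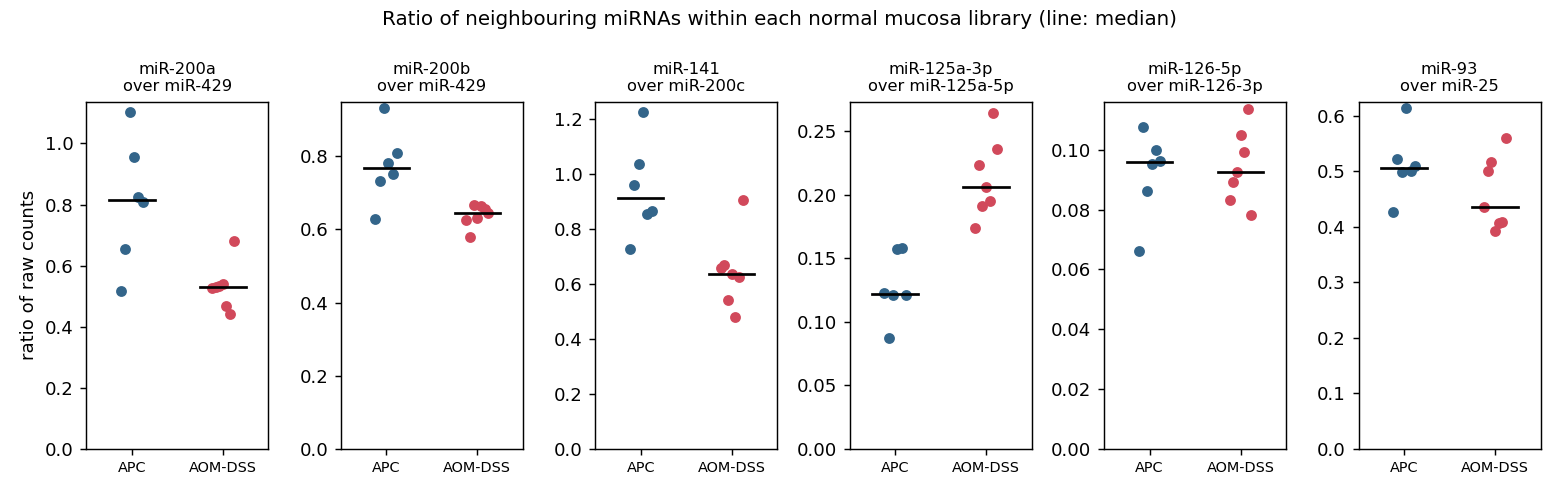
Ratio of raw counts between neighbouring miRNAs or arms in each normal mucosa library (points, linear axes from 0, line at the median of 6 APC and 7 AOM-DSS libraries). The 3 ratios of the miR-200 family are lower in most AOM-DSS libraries, miR-125a-3p over miR-125a-5p is higher in each of them, and the 2 remaining ratios overlap widely.

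Of the intestinal epithelium markers, miR-375, known from enteroendocrine and islet cells, was lower in AOM-DSS mucosa and the other two did not pass. In APC mucosa miR-375 measured 2632 to 4661 CPM (median 4115), and in AOM-DSS mucosa 1646 to 2639 CPM (median 2376). AOM-DSS normal 7 at 2639 CPM stood just above the lowest APC library, and the rest of the groups did not overlap. The difference was -0.78 ± 0.22 (adjusted p = 0.0485), a call that ended without any library except APC normal 2 (adjusted p = 0.0530 to 0.1295, log2 values -0.84 to -0.70). It passed in 8 of 26 alternatives, and was also lost when scaled to the 100 highest miRNAs (-0.54, adjusted p = 0.168) or the mRNA probes, with no filter, with the viral mean subtracted and in the authors' scaled values (adjusted p = 0.0658 to 0.228). miR-194 measured -0.36 ± 0.13 (adjusted p = 0.127) and miR-192 -0.22 ± 0.14 (adjusted p = 0.513), with a list median of -0.36, and miR-192 turned to 0.033 when scaled to the 100 highest miRNAs. miR-378, which lies in an intron of Ppargc1b and is tied to mitochondrial metabolism, fell by 0.65 ± 0.16 (adjusted p = 0.00987, 1.57-fold). In APC mucosa miR-378 measured 3771 to 5921 CPM (median 4516), and in AOM-DSS mucosa 2606 to 3482 CPM (median 2973). The groups did not overlap, although the call ended without APC normal 3 (-0.57, adjusted p = 0.0549) or AOM-DSS normal 5 (-0.62, adjusted p = 0.0511). It also ended when scaled to the 100 highest miRNAs (-0.40, adjusted p = 0.102) or to the mRNA probes (-0.59, adjusted p = 0.178) and in the authors' scaled values (-0.53 and -0.52, adjusted p = 0.164 and 0.0854), so that it passed in 20 of 26 alternatives.

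Summed levels of these and other lineages overlapped between the groups and were not tested. The epithelium markers summed to 41017 to 58512 CPM in APC and 31376 to 49888 CPM in AOM-DSS mucosa, and the miR-200 family to 56428 to 74452 CPM in APC and 39093 to 59844 CPM in AOM-DSS mucosa. The 5 muscle probes summed to 172020.0 to 340266 CPM in APC and 146715 to 184588 CPM in AOM-DSS mucosa, of which 4 were above background, and none of the 5 passed the test (median -0.46, or -0.20 with 1 above 0 when scaled to the 100 highest miRNAs), with miR-145 at -0.64 ± 0.20 (adjusted p = 0.0876) and miR-143 at -0.53 ± 0.22 (adjusted p = 0.242). Muscle miR-133a and miR-1, found in striated and visceral muscle, measured -0.46 ± 0.17 and -0.40 ± 0.17 (adjusted p = 0.136 and 0.22). The 7 leukocyte probes, 6 of them above background, summed to 11402 to 23596 CPM in APC and 16876 to 35776 CPM in AOM-DSS mucosa, and the 2 endothelial probes to 9297 to 13998 CPM in APC and 13924 to 18182 CPM in AOM-DSS mucosa. The part of these other cells in the epithelial differences was not tested.

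Endothelial miR-126, which is cut from an intron of Egfl7 and supports vessel integrity, was higher in AOM-DSS mucosa on both arms. In APC mucosa miR-126-3p measured 8488 to 12768 CPM (median 10336), and in AOM-DSS mucosa 12502 to 16862 CPM (median 15251). The groups touched, with AOM-DSS normal 6 at 12502 CPM below the 2 highest APC libraries. It was 1.42-fold higher (0.50 ± 0.12, adjusted p = 0.00825). The other arm, miR-126-5p, measured in APC mucosa 809.5 to 1230.0 CPM (median 938), and in AOM-DSS mucosa 1232 to 1623 CPM (median 1422). These groups did not overlap and the difference was 0.55 ± 0.14 (adjusted p = 0.0244). The ratio of miR-126-5p to miR-126-3p was 0.0661 to 0.108 (median 0.0959) in APC mucosa and 0.0782 to 0.114 (median 0.0927) in AOM-DSS mucosa (exact permutation p = 0.720). The call of miR-126-3p ended without AOM-DSS normal 5 (0.49, adjusted p = 0.0511), and that of miR-126-5p without APC normal 3 or 4 or AOM-DSS normal 2, 4 or 5 (adjusted p = 0.0542 to 0.0669). Both calls also ended when scaled to the mRNA probes (0.57 and 0.59, adjusted p = 0.178 and 0.357). They passed in 24 and 20 of 26 alternatives.

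Arms differed for miR-125a, a miRNA clustered with let-7e whose 5p arm is homologous to lin-4 of Caenorhabditis elegans. In APC mucosa miR-125a-3p measured 202 to 401 CPM (median 373), and in AOM-DSS mucosa 509 to 708 CPM (median 631). Each AOM-DSS library lay above each APC library, with APC normal 2 far below the other APC libraries. miR-125a-3p rose 1.77-fold (0.83 ± 0.19, adjusted p = 0.0094). The 5p arm measured 0.11 ± 0.13 (adjusted p = 0.752) and let-7e, 460 bases away, 0.056 ± 0.12 (adjusted p = 0.88). The ratio of the 3p to the 5p arm was 0.0869 to 0.158 (median 0.122) in APC mucosa and 0.173 to 0.264 (median 0.206) in AOM-DSS mucosa, without overlap (exact two-sided permutation p = 0.000583, the smallest that 1716 arrangements can give, 0.0035 adjusted over the 6 ratios). It was chosen after the levels of both arms had been seen, so its p-value is no separate evidence of an arm difference.

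In the Dlk1-Dio3 imprinted cluster, a maternally expressed group of miRNA genes, 3 of 58 probes were higher in AOM-DSS mucosa, against 1.6% of all miRNAs tested, and 55 did not pass. The 3 were miR-376b, miR-434-3p and miR-487b. In APC mucosa miR-376b measured 146 to 272 CPM (median 206), and in AOM-DSS mucosa 246 to 792 CPM (median 339). AOM-DSS normal 7 was the highest library at 792 CPM, the groups overlapped, and miR-376b was above background in 4 of 6 APC and 7 of 7 AOM-DSS libraries. The difference was 0.77 ± 0.21 (adjusted p = 0.0325) and 0.65 without AOM-DSS normal 7 (adjusted p = 0.0438). The call ended without APC normal 2, 4 or 5 or AOM-DSS normal 2 or 6 (adjusted p = 0.0574 to 0.0852). In APC mucosa miR-434-3p measured 148 to 195 CPM (median 170.1), and in AOM-DSS mucosa 183 to 449 CPM (median 255). miR-434-3p was above background in 4 of 6 APC and 6 of 7 AOM-DSS libraries, and its difference was 0.54 ± 0.15 (adjusted p = 0.0458). With the viral mean subtracted miR-376b and miR-434-3p measured 1.28 and 1.02, without passing (adjusted p = 0.0621 and 0.0959). The call of miR-434-3p held in only 3 of 13 fits without a library, those without APC normal 1, APC normal 6 or AOM-DSS normal 3, with an adjusted p of 0.0542 to 0.0924 in the others. miR-487b was at background in all APC libraries and above it only in AOM-DSS normal 7, so its fitted 0.68 ± 0.20 (adjusted p = 0.0485) has no measured size. That call ended in 11 of 13 fits without a library, all but those without APC normal 5 or AOM-DSS normal 3 (adjusted p = 0.0541 to 0.123).

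Only 14 of the 58 Dlk1-Dio3 probes were above background, and their median difference was 0.41, against -0.0083 for the 199 miRNAs above background. This filter takes a miRNA above background in most libraries of either group, and miR-495 and miR-382 met it in AOM-DSS mucosa only. The choice of the 14 thus depends on the levels compared, and its part in their median was not tested. Over all 58 the median was 0.16, with 40 above 0, and 0.39 with 51 above 0 when scaled to the 100 highest miRNAs. Among members that did not pass, miR-127, miR-136 and miR-376c measured 0.46 ± 0.16, 0.42 ± 0.15 and 0.48 ± 0.16 (adjusted p = 0.119, 0.127 and 0.105). The summed level of the cluster was 6867 to 7875 CPM in APC and 8222 to 10449.8 CPM in AOM-DSS mucosa, with no overlap of the groups. This sum takes in all 58 probes, most of them not above background, and no background was subtracted. Viral probes averaged 91.4 CPM per probe in APC and 97.1 CPM in AOM-DSS mucosa, and the part of background in the sums was not tested.

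Probes named in early catalogues for sequences since assigned to transfer or ribosomal RNA held calls in opposite directions. Of 15 such probes 1 was higher, 1 was lower and 13 did not pass (median -0.043, or 0.21 scaled to the 100 highest miRNAs). In APC mucosa miR-2132 measured 222 to 758 CPM (median 444), and in AOM-DSS mucosa 890.3 to 1707 CPM (median 1178). The groups did not overlap, and miR-2132 was 2.58-fold higher (1.37 ± 0.24, adjusted p = 0.000604). In APC mucosa miR-2134 measured 537 to 917 CPM (median 748), and in AOM-DSS mucosa 231 to 549 CPM (median 266). AOM-DSS normal 6 at 549 CPM lay within the APC range and the rest of the AOM-DSS libraries below it. miR-2134 was 2.38-fold lower (-1.25 ± 0.21, adjusted p = 0.000255). The share of miR-720 (a piece of a tRNA) in all miRNA counts averaged 25.2% ± 0.705 over the APC libraries (SD, n = 6) and 21.5% ± 7.36 over the AOM-DSS libraries (n = 7), a difference that did not pass (exact permutation p = 0.251), and edgeR gave -0.42 ± 0.27 (adjusted p = 0.479). The tRNA-like miR-1937c and the joint probe of miR-1937a and miR-1937b measured -0.69 ± 0.23 and -0.75 ± 0.28 (adjusted p = 0.109 and 0.171).

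miR-762 was higher in AOM-DSS mucosa by a fitted 1.03 ± 0.23 on the log2 scale (adjusted p = 0.00642), a size that depends on background. In APC mucosa miR-762 measured 120.3 to 261 CPM (median 166), and in AOM-DSS mucosa 269 to 739 CPM (median 374). The groups did not overlap, but miR-762 exceeded background in only 2 of 6 APC libraries against 7 of 7 AOM-DSS libraries, and with the viral mean subtracted the difference was 1.66 (adjusted p = 0.0250). The highest library was AOM-DSS normal 7 at 739 CPM, and without it the difference was 0.93 (adjusted p = 0.0102).

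Leukocyte miRNAs gave no call, and of 7 the median was 0.36 with 5 above 0, or 0.58 with all 7 above 0 when scaled to the 100 highest miRNAs. Neutrophil miR-223 measured in APC mucosa 552 to 1360.0 CPM (median 763), and in AOM-DSS mucosa 929 to 1742 CPM (median 1503). The APC libraries other than APC normal 1 lay below every AOM-DSS library, and the difference was 0.77 ± 0.23 (adjusted p = 0.0729). miR-155 of activated immune cells measured in APC mucosa 363 to 503 CPM (median 408), and in AOM-DSS mucosa 491 to 641 CPM (median 611). APC normal 6 alone overlapped with the AOM-DSS libraries, and the difference was 0.50 ± 0.16 (adjusted p = 0.0784). Of 26 alternatives, miR-223 passed in 11 and miR-155 in 8. With DESeq2 their adjusted p-values were 0.0247 and 0.021, and without APC normal 1 miR-223 stood at 1.00 (adjusted p = 0.00831). Lymphocyte miR-150 and the pan-leukocyte miR-142-3p measured 0.87 ± 0.41 and 0.36 ± 0.23 (adjusted p = 0.306 and 0.502). None of 8 inflammation-responsive miRNAs passed (median 0.16), among them miR-21 (0.33 ± 0.14, adjusted p = 0.22) and miR-132 (0.32 ± 0.12, adjusted p = 0.166). For miR-132 every AOM-DSS library lay above every APC library, 1120.3 to 1300.3 against 893 to 1100.4 CPM.

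miR-93, of the miR-106b-25 cluster in Mcm7 that resembles miR-17-92 and promotes proliferation, was lower in AOM-DSS mucosa. In APC mucosa miR-93 measured 989 to 1279 CPM (median 1187), and in AOM-DSS mucosa 728 to 987 CPM (median 914). All AOM-DSS libraries lay below all APC libraries by a narrow gap, and the difference was -0.43 ± 0.12 (adjusted p = 0.0485). It passed in only 3 of 13 fits without a library, those without APC normal 5, AOM-DSS normal 3 or AOM-DSS normal 7 (adjusted p = 0.0640 to 0.141 in the others), and in 9 of 26 alternatives in all. Of 11 probes of miR-17-92 and its paralogue clusters miR-93 was the 1 that passed, and all 11 lay below 0 (median -0.32). Scaled to the 100 highest miRNAs, miR-93 measured -0.19 (adjusted p = 0.355), 2 of the 11 lay above 0 and the median was -0.063. Its neighbours miR-25 and miR-106b measured -0.28 ± 0.12 and -0.35 ± 0.15 (adjusted p = 0.22 and 0.242), and miR-19b and the joint probe of miR-20a and miR-20b -0.41 ± 0.15 and -0.41 ± 0.14 (adjusted p = 0.15 and 0.105). The ratio of miR-93 to miR-25 was 0.426 to 0.614 (median 0.505) in APC mucosa and 0.392 to 0.561 (median 0.436) in AOM-DSS mucosa (exact permutation p = 0.154, 0.185 adjusted over the 6 ratios).

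In the miR-30 family, common in differentiated epithelia, miR-30e was lower and 4 of 5 did not pass, with all 5 below 0 (median -0.26), but 3 above 0 when scaled to the 100 highest miRNAs (median 0.0064). In APC mucosa miR-30e measured 1142 to 1467 CPM (median 1225), and in AOM-DSS mucosa 698 to 1161 CPM (median 858). Only AOM-DSS normal 7, at 1161 CPM, reached the APC range, and the difference was -0.54 ± 0.16 (adjusted p = 0.0485). The call ended without any library but AOM-DSS normal 7 (adjusted p = 0.0574 to 0.141), and when scaled to the 100 highest miRNAs (-0.30, adjusted p = 0.194), passing in 8 of 26 alternatives. miR-30a measured -0.35 ± 0.13 (adjusted p = 0.15) with no overlap, 2419 to 2789.9 CPM in AOM-DSS against 2901 to 3742 CPM in APC mucosa. miR-804 fell by 0.86 ± 0.25 (adjusted p = 0.0494), with 284 to 1415 CPM in APC and 290.3 to 499 CPM in AOM-DSS mucosa. APC normal 3 held its highest value, and without it the difference was -0.50 (adjusted p = 0.211). It also ended without APC normal 4 or any AOM-DSS library but the sixth (adjusted p = 0.0666 to 0.112), and passed in 10 of 26 alternatives. miR-503 was at background in all 13 libraries, so its passed test (adjusted p = 0.0458) gives no size, and it ended in 8 of 13 fits without a library, all but those without APC normal 1 or 5 or AOM-DSS normal 3, 6 or 7 (adjusted p = 0.0528 to 0.134).

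**Figure D4:**
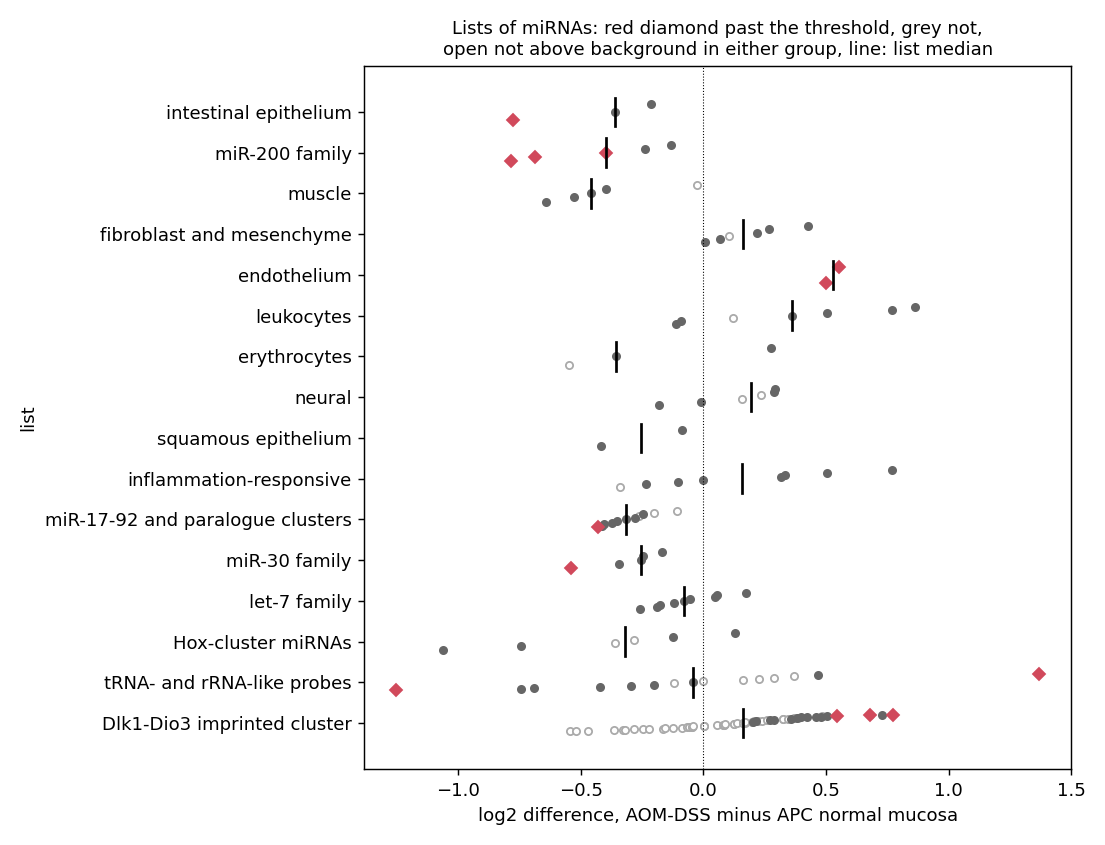
Log2 difference, AOM-DSS minus APC normal mucosa, of each member (points) of 16 lists of miRNAs, with the list median as a line, red diamonds for members past the threshold and open circles for members not above background in either group. The 5 miR-200 members and all members of the miR-30 and miR-17-92 lists lie below 0 with this TMM scaling (2, 3 and 2 of them lie above 0 when scaled to the 100 highest miRNAs), and both endothelial probes lie above 0 past the threshold.

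No member passed in the lists that follow. Their median log2 differences were 0.16 for 6 fibroblast and mesenchyme probes, where miR-125b-5p, miR-99a and miR-100 measured 0.43 ± 0.14, 0.27 ± 0.16 and 0.22 ± 0.15 (adjusted p = 0.104, 0.446 and 0.513). They were -0.36 for 3 erythrocyte, 0.20 for 6 neural, -0.25 for 2 squamous epithelium and -0.11 for 4 pancreas and liver probes. Among families and clusters the medians were -0.079 for 9 let-7, -0.042 for 7 miR-34, -0.038 for 3 miR-29, 0.00019 for 6 miR-15/16 and 0.019 for 3 miR-181 probes. They were -0.12 for 5 probes of the miR-23/27/24 clusters, 0.074 for 3 of the miR-183 cluster and -0.065 for 33 of the Sfmbt2 cluster. The 6 miRNAs of the Hox clusters had a median of -0.32. Of these, miR-10a measured -1.06 ± 0.43 and miR-10b -0.74 ± 0.40 (adjusted p = 0.201 and 0.383), with APC normal 3 at 10239 CPM of miR-10a against at most 4009.8 CPM in any other library. Without APC normal 3 they measured -0.43 and -0.010 (adjusted p = 0.661 and 0.995), and the median of the list was -0.12. Scaled to the 100 highest miRNAs, the medians of the let-7, miR-34, miR-29 and miR-23/27/24 lists turned to 0.18, 0.22, 0.20 and 0.14, and those of the pancreas and liver and Sfmbt2 lists to 0.15 and 0.18.

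miR-135b, the miRNA the study is named for and a repressor of Apc, was at background in all 13 normal libraries, with 52.3 to 115 CPM in APC and 42.5 to 121 CPM in AOM-DSS mucosa. Its relative miR-135a measured 137 to 215 and 168 to 343 CPM, above background in 4 of 6 APC and 4 of 7 AOM-DSS libraries. Neither passed in normal mucosa, with edgeR adjusted p-values of 0.831 and 0.642, and at background a difference of miR-135b has no measured size. In tumours miR-135b and miR-135a were lower in AOM-DSS, by 1.14 ± 0.17 and 0.98 ± 0.20 (edgeR adjusted p = 8.54e-06 and 0.000959).

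The same contrast in tumours, 6 AOM-DSS against 5 APC, asked whether the model difference of normal mucosa was present there too. Of 563 miRNAs 49 passed (8.7%), 27 higher in AOM-DSS tumours (4.8%) and 22 lower (3.91%). Called in both tissues were 4 miRNAs, 21.1% of the calls of normal mucosa and 8.16% of those of tumours, with 2 in the same direction and 2 in opposite directions. The sign was the same in tumours for 13 of the 19 normal calls. How many of all 563 miRNAs kept their sign was not computed, so this count is no result about the 19. miR-1224 was higher in AOM-DSS tumours as well, by 0.80 ± 0.17 (adjusted p = 0.00165), and miR-376b by 1.12 ± 0.26 (adjusted p = 0.00272). The difference of miR-1224 was larger in normal mucosa than in tumours by 1.15 ± 0.23 (adjusted p = 0.00171 for this interaction). miR-378 and miR-375 turned, being higher in AOM-DSS tumours by 0.84 ± 0.18 and 0.85 ± 0.25 (adjusted p = 0.00134 and 0.0295), and their interactions were -1.49 and -1.63 (adjusted p = 4.63e-05 and 0.00239).

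Interactions passed for 38 of 563 miRNAs (6.75%) and for 6 of the 19. Besides those 3 they were miR-126-3p (0.63, adjusted p = 0.0172), which measured -0.13 in tumours, miR-2134 (-1.40, adjusted p = 0.00428), which measured 0.15, and miR-503, at background in normal mucosa. The interaction contains the normal difference by which the 19 were chosen. Their share is raised by that choice and cannot be read against the share of all miRNAs. The miR-200 members miR-141 and miR-200a measured -0.12 and -0.12 in tumours (adjusted p = 0.751 and 0.717), and the interaction did not pass for either (adjusted p = 0.0617 and 0.106). Epithelial miR-194 and miR-192, which did not pass in normal mucosa, were higher in AOM-DSS tumours by 0.97 ± 0.14 and 1.11 ± 0.16 (both adjusted p = 8.54e-06), with interactions of -1.33 and -1.33 (adjusted p = 1.26e-05 and 4.9e-05). miR-145 and miR-143 were likewise higher in AOM-DSS tumours, by 0.77 and 0.83 (adjusted p = 0.0298 and 0.0362). AOM-DSS tumours ran on cartridges 2 and 3 and APC tumours on cartridge 1, so cartridge and model cannot be told apart in that contrast either.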

How the data were processed

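Mature miRNAs were measured on NanoString nCounter cartridges. The raw counts deposited by the authors cover 24 libraries, with 566 mouse miRNA, 33 viral miRNA and 4 mRNA probes. A second deposited table gives these counts as a signal multiplied by a factor of each sample, where 33 zeros had become 1. Dividing by the factor returned whole numbers for 100% of its 14376 values within 0.01, and matching these to the raw columns gave the library numbers, since only 6 of 24 raw columns named 1 sample. What the factor rests on, and which software was used, is not stated in the labels or headers. Per the labels' protocols the tissue was fixed in formalin and embedded in paraffin, but the series' design text speaks of frozen tissue. Fixation can fragment RNA, and which account holds was not settled.

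Counts were tested in R 4.3.3 with edgeR 4.0.16 (filterByExpr with min.count 10 and min.total.count 15, TMM, robust quasi-likelihood fit over the 4 groups, Benjamini-Hochberg adjustment over all miRNAs tested, threshold 0.05). The filter kept 563 of 566 miRNAs. Log2 differences carry a standard error, and an adjusted p without a named test is edgeR's. Ratios and library measures were tested with exact two-sided permutation tests (smallest p 0.000583). Alternatives used DESeq2 1.42.0, limma 3.58.1 with log2(value + 1) or log2(value + 10) of the authors' scaled signal, other scalings and filters, and each library left out. Simulated counts of 563 miRNAs had 50 miRNAs changed at each of 1.5-, 2-, 3- and 4-fold, up and down alike. Of these changes 68%, 86%, 100% and 100% were recovered, and 2.75% of calls were false. Far more miRNAs were changed there than the 19 called here, which makes the adjustment more lenient. These shares therefore do not give the recovery or the false calls of the comparison itself. The total miRNA count of 47235 to 329346 per library sets the precision, and a call on counts at the viral background has no measured size. Libraries of a group always differed by more than counting noise (lowest chi-square per degree of freedom 3.30).

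Named miRNAs were the 12 largest rises and falls past the threshold and above background, up to 4 members of each of 25 lists with the smallest p, the 8 highest miRNAs, miR-135a and miR-135b. Members, lists and comparisons were chosen with earlier results of these data known. miR-487b, miR-503, cluster neighbours and the ratio partners were added after their values were seen. Positions and sequences came from RefSeq tables of GRCm38.p6, matched by later names of the probes, which gave a sequence for 13 of the 19 called miRNAs. miR-126-5p, miR-375, miR-378, miR-487b, miR-2132 and miR-2134 are named only. Probes such as that of miR-20a and miR-20b count near-identical miRNAs together.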

Additional observations from a re-analysis of the deposited data

Results flagged for a closer look

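By the gap of the highest or lowest library to its nearest neighbour, relative to the group's range, 13 of 120 groups held a library far from the others, where chance gives about 5%. AOM-DSS normal 7 was set apart by its total count of 47235 and by its levels of miR-376b (792 CPM), miR-434-3p (449 CPM), miR-487b (237 CPM) and miR-762 (739 CPM), each the highest of its group, and of let-7e (1636 CPM), the lowest. APC normal 3 was highest for miR-10a (10239 CPM) and miR-10b (3044 CPM), APC normal 1 for miR-106b (1901 CPM), AOM-DSS normal 2 for miR-142-3p (24288 CPM) and for the number of miRNAs above background (227), and AOM-DSS normal 6 for miR-2134 (549 CPM). APC normal 2 was lowest for miR-125a-3p (202 CPM).

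The model difference in normal mucosa was not the same as that in tumours for 20 of the 53 miRNAs taken through the alternatives, by edgeR's test of the interaction (adjusted p = 1.26e-05 to 0.0474). On the log2 scale, normal minus tumour, it was above 0 for let-7e (0.66), miR-100 (1.03), miR-1224 (1.15), miR-125a-5p (0.64), miR-125b-5p (1.00), miR-126-3p (0.63), miR-135a (1.21), miR-135b (1.00) and miR-99a (0.81). It was below 0 for miR-1 (-0.88), miR-143 (-1.36), miR-145 (-1.41), miR-192 (-1.33), miR-1937c (-1.36), miR-194 (-1.33), miR-2134 (-1.40), miR-375 (-1.63), miR-378 (-1.49), miR-503 (-1.28) and miR-720 (-1.33). Both members of the miR-135 pair and miR-503 rest on levels at or near background in normal mucosa. Over all miRNAs tested, the interaction passed for 38 of 563 (6.75%). The 53 were partly chosen by the normal difference, which the interaction contains, so their share cannot be read against that of all miRNAs. Interactions also passed outside the 53, among them that of neural miR-9 (1.73, edgeR adjusted p = 4.9e-05).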

How the results depend on the processing

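The 19 calls (9 higher, 10 lower) changed in number with the scaling and with the set of miRNAs tested. Scaling to the 100 highest miRNAs gave 42 (38 and 4) and to the mRNA probes 4 (3 and 1). Testing only miRNAs above background gave 40 (23 and 17), with fewer tests adjusted over. The authors' scaled values gave 15 higher and 3 lower with a pseudocount of 1, and 21 and 3 with 10. No filter left 4 lower and limma-voom 6 lower. Leaving out 1 library gave 8 to 17 calls, 5 to 11 higher and 3 to 9 lower, with 9 calls without APC normal 3, 12 without APC normal 4, and 12, 9, 10 and 8 without AOM-DSS normal 1, 2, 4 and 5. The fit with the replicate number as a block gave 28 (14 and 14). These numbers are not known to pair libraries across the models. Correlations of same-numbered AOM-DSS and APC normal libraries ran from -0.14 to 0.33, and 3 of 12 libraries correlated best with their own number. Whether normal and tumour libraries of a model are paired was not tested, and the fits treat them as separate. DESeq2 size factors, DESeq2's test, leaving out miR-720, subtracting the viral mean and fitting only the normal groups stayed within 1.5 times of 19 (17 to 27). The fit of only the normal groups, without the tumour libraries, gave 22 calls, of which 15 were among the 19. No called miRNA changed sign. Among those not called, scaling to the 100 highest turned miR-135b (0.12), miR-192 (0.033), miR-200c (0.0087) and miR-429 (0.12), subtracting the viral mean turned miR-135b (0.31), and without single libraries miR-135b ran from -0.33 to 0.0075 and miR-429 from -0.20 to 0.017. The causes were not tested. Across 53 named miRNAs and all alternatives, 1125 of 1368 values kept direction and side of the threshold, 160 lost and 76 gained a call, and 7 reversed.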
